A study of Homo sapiens with 9 samples.

Results

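The BCL2 family of apoptosis regulators was examined through 10 of its genes, which 15 of the 50599 non-control probes of the array measured. A probe was taken as a member where its RefSeq transcript belonged to BCL2A1, BCL2, BCL2L1, MCL1, BAX, BAK1, BIK, BBC3, PMAIP1 or BCL2L11, and all 10 genes had at least 1 such probe. The family was selected on the contrast of OSK-A549-Colony cells with the parental A549 cells, because a BCL2A1 probe was among the largest increases there. The members' values in that contrast are therefore a description, from whose counts of calls nothing is read, and no p-value is given for BCL2A1 in any contrast, since the OSK-A549-Colony and parental arrays both served its choice.

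A549 is an established human lung adenocarcinoma cell line. The parental A549 cells were not transduced, whereas the other groups received OCT3/4, SOX2 and KLF4 (together OSK) by retrovirus and went on to form dome-shaped colonies. OSK-A549-Colony cells were the colony cells that remained on the dish through a short trypsin step, and OSK-A549-SN cells were spindle-shaped cells growing beside colonies and detached first. RNA came from 3 independent transduction experiments per the study's methods, with 1 single-colour Agilent array per RNA sample and 3 arrays per group. The transduced groups were separated by the trypsin step and by picking up the remaining colonies, and cells given a control vector were not analysed here. The parental arrays carried passage numbers 98, 98 and 99 and the arrays of both transduced groups lay 7 to 9 passages later, so that passage and transduction cannot be told apart. Levels are log2 intensities after subtraction of the array's 75th percentile, a scale on which 0 is that percentile and a difference of 1 is a 2-fold change.

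Proteins of the BCL2 family decide whether the outer mitochondrial membrane stays intact when a cell is stressed. BAX and BAK1 are the effectors that open pores in that membrane and release cytochrome c, the pro-survival members hold them in check, and the BH3-only members bind the pro-survival proteins or the effectors and thereby favour pore formation. In lung adenocarcinoma cells BCL2L1 and MCL1 are well known as guardians against drug-induced death, and BCL2A1 is best known from leukocytes, where NF-kB induces it.

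The promoters of BCL2A1, BBC3 and PMAIP1 are shown because the family was selected on BCL2A1, BBC3 had the largest differences from parental A549 among the other members with an entry, and PMAIP1 the clearest tested difference between the transduced groups. The entries are those of the RefSeq promoter table (build GRCh38.p14), which held 8 of the 10 genes. Each line holds the 250 bases before the annotated start, 5′ to 3′ on the strand of the gene, with matches to a searched motif in capitals.
BCL2A1: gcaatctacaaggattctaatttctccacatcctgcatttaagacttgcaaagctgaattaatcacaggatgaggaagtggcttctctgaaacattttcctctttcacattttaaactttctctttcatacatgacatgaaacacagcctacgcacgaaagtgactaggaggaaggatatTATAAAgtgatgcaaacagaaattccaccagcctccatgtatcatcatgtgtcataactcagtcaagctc
BBC3: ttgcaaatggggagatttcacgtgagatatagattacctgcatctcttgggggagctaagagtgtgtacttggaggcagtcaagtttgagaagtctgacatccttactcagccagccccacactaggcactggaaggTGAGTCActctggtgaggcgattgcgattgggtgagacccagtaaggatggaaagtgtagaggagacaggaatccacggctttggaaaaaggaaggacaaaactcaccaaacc
PMAIP1: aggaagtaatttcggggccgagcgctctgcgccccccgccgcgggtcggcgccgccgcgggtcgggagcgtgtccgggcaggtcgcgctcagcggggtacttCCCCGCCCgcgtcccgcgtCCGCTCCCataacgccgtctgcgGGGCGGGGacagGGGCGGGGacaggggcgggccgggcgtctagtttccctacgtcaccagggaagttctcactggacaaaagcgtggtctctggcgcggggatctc
The BCL2A1 window lies at chr15:79971197-79971446 on the minus strand, that of BBC3 at chr19:47232668-47232917 on the minus strand, and that of PMAIP1 at chr18:59899746-59899995 on the plus strand. Their GC content was 38.8%, 49.2% and 72.8%, beside a median of 58% over all 27305 promoters of the table. Capitals mark TATAAA in BCL2A1, 70 bases before the start, TGANTCA (the AP-1 motif) in BBC3, 113 bases before it, and 4 matches of CCNCNCCC (the core bound by KLF factors) in PMAIP1. On either strand, TATAAA was found in 11.1% of all promoters of this length, TGANTCA in 6.60% and CCNCNCCC in 52.4%. The octamer ATGCAAAT bound by OCT factors (1.66% of promoters), the SOX core CATTGT (9.45%) and the 10-letter NF-kB motif (5.05%) were in 0 of the 8 members' windows, which says only that these letters are not in these bases. A match is a description and not a binding site.

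Pearson's r between arrays, over the 23758 probes detected on all 9, ran from 0.983 to 0.993 in the parental group, from 0.994 to 0.997 in the OSK-A549-Colony group and from 0.987 to 0.996 in the OSK-A549-SN group. Parental replicate 3 stood apart from the other parental arrays (r of 0.983 and 0.987). Replicate 3 of OSK-A549-SN, the only array of this series on the 2nd slide, stood apart from the remaining arrays of its group (0.987 and 0.990). The 75th percentile of intensity lay between 217.5 and 270.6, and 25808 to 29315 probes per array were detected. With 3 arrays per group, each of them weighs heavily in a mean.

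The label of a lung epithelial line was checked against marker genes. All 6 epithelial markers (KRT7, KRT8, KRT18, KRT19, EPCAM and CDH1) were well above background on all 9 arrays, as were the alveolar markers NAPSA and SFTPC, while SFTPB was on 2 arrays and NKX2-1, a factor of the same lineage, on 0. Of the fibroblast and mesenchymal stem cell markers, 5 of 6 never stood well above background, and COL1A1 did on 1 array of each group. Leukocyte markers were checked because BCL2A1 is a leukocyte gene: CD3E stood well above background on 2 of 9 arrays, whereas CD14, PTPRC and ITGAM did on all 9, and LYZ had no named probe. The part of these transcripts in the BCL2A1 values was not tested.

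Of the 15 member probes, 14 were well above background on all 9 arrays, the exception being BCL2A1 A_23_P152002. All 15 entered each contrast. Between OSK-A549-Colony and parental A549, 1 of 15 was called by limma (adjusted p under 0.05 and fold over 2), beside 3.7% of all 30864 probes. In the same contrast 8 had an unadjusted p under 0.05 (30.1% of all probes) and 11 did not overlap between the groups (41.6%). Nothing is read from these counts, as this contrast chose the family. Between the transduced groups (OSK-A549-Colony over OSK-A549-SN), limma called 0 of 15 members and 0% of all 31746 probes, with 4 members at an unadjusted p under 0.05 (19.5% of all probes) and 7 not overlapping (30.8%). Between OSK-A549-SN and parental A549, limma called 0 of 15 members and 1.55% of all 32218 probes, with 4 members at an unadjusted p under 0.05 (21.6%) and 6 not overlapping (32.1%). These counts include the selected BCL2A1 probe, also where its values are at background, and whether the family differs from other probes was not tested. Every contrast shares 3 arrays with each of the others, so the values are set side by side and not compared as independent results.

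**Figure D1:**
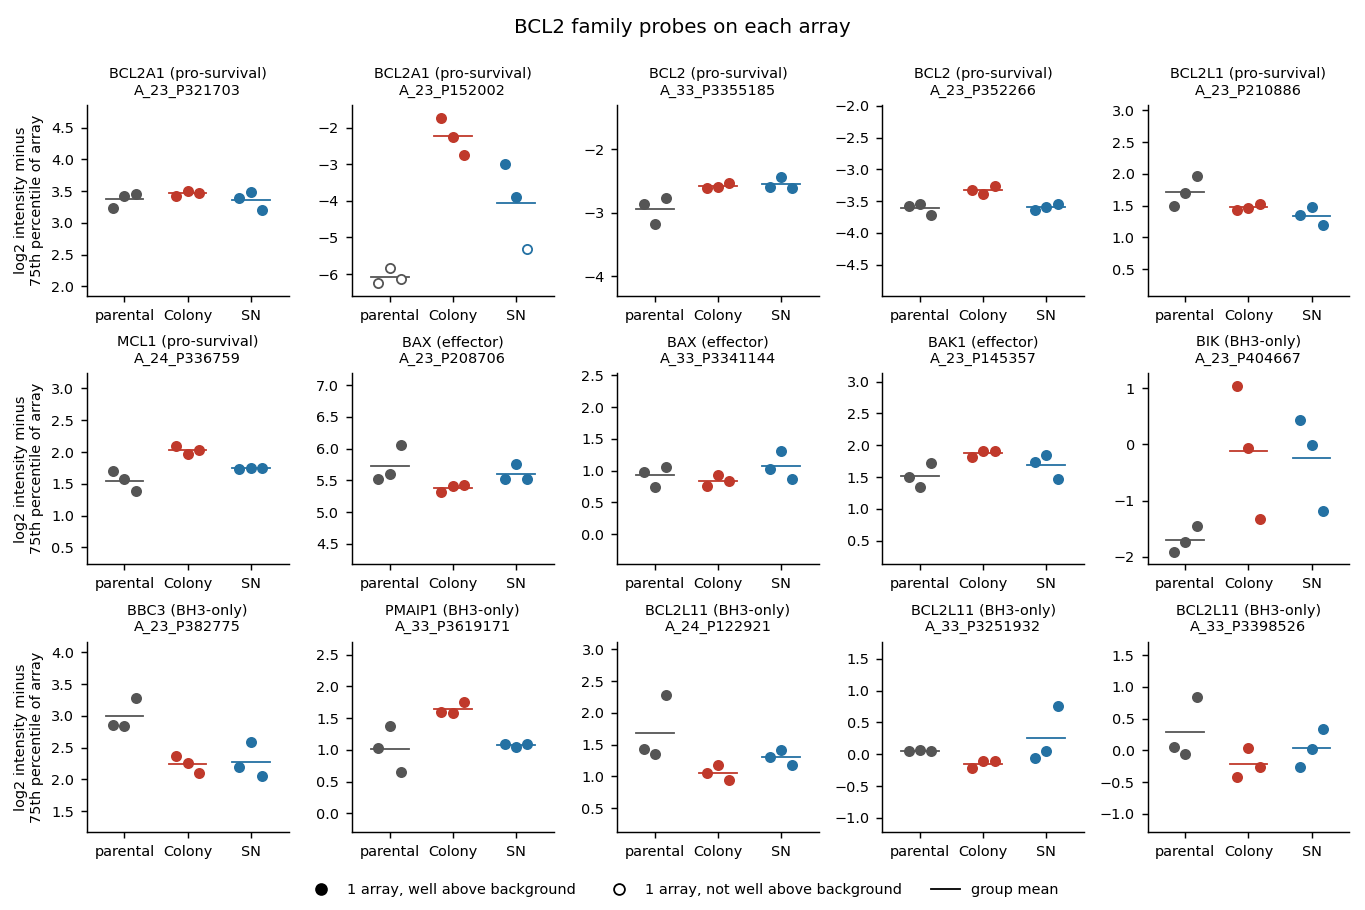
Each panel plots 1 BCL2 family probe, with 1 point per array (log2 intensity minus the array's 75th percentile) and a line at the mean of 3 arrays; open points were not well above background, and each axis spans at least 3 log2 units. BCL2A1 A_23_P152002 ran from -6.26 to -1.72 over the arrays, while BCL2A1 A_23_P321703 kept between 3.20 and 3.50.

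Among the pro-survival members, BCL2A1 encodes a short-lived protein that binds BH3-only proteins and is induced in activated leukocytes. Its probe A_23_P152002 stood at -6.26, -5.85 and -6.13 on the parental arrays, at -1.72, -2.24 and -2.74 on the OSK-A549-Colony arrays and at -2.98, -3.90 and -5.32 on the OSK-A549-SN arrays. The OSK-A549-Colony arrays lay above all others, while the parental arrays and OSK-A549-SN replicate 3 were at background, where their order says nothing of a level. In unscaled intensity the same arrays read 3.33, 4.38 and 3.11, then 76.2, 49.7 and 36.1, then 29.3, 14.5 and 6.76. It was well above background on 0 of 3 parental arrays, 3 of 3 OSK-A549-Colony arrays and 2 of 3 OSK-A549-SN arrays, so that the parental level is only bounded from above. Against that bound the OSK-A549-Colony mean was at least 3.90-fold higher, and no such bound is given for OSK-A549-SN, whose replicate 3 was itself at background. The bound sets each parental array at the higher of its own value and the lowest signal well above background on that array. RNA of whole cultures cannot tell a higher level in each cell from a larger number of cells with the transcript.

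The fitted log2 difference of this probe was 3.85 (standard error 0.28) for OSK-A549-Colony over parental A549, which uses the parental values at background. Fitted differences of similar size were those of NPTX1 (4.35), CPA4 (3.96) and TNFRSF9 (3.78), and as the bound supports only 1.96 for BCL2A1, its place among them is not known. The fitted difference was 2.01 (standard error 0.58) for OSK-A549-SN over parental A549 and 1.84 (standard error 0.63) for OSK-A549-Colony over OSK-A549-SN, both with arrays at background. With normexp background correction, which pulls dim probes together, these 3 differences were 0.82, 0.25 and 0.57. Without OSK-A549-SN replicate 3 the last of them was 1.21, with the OSK-A549-Colony arrays still above the others.

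The other BCL2A1 probe, A_23_P321703, carries the same transcript accession and gave another picture. It read 3.24, 3.42 and 3.45 on the parental arrays, 3.43, 3.50 and 3.48 on the OSK-A549-Colony arrays and 3.39, 3.48 and 3.20 on the OSK-A549-SN arrays, and the groups overlapped in every contrast. Its fitted difference was 0.10 (standard error 0.10) for OSK-A549-Colony over parental A549, 0.11 (standard error 0.10) over OSK-A549-SN, and -0.01 (standard error 0.14) for OSK-A549-SN over parental A549. Why probes of 1 transcript accession differ in this way was not tested, and a BCL2A1 increase is borne by 1 of its 2 probes.

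BCL2, the founding pro-survival member, was dim on every array but well above background on all 9 through both of its probes, whose accessions are those of different transcripts. Probe A_33_P3355185 read -2.87, -3.18 and -2.77 on the parental arrays, -2.61, -2.59 and -2.53 on the OSK-A549-Colony arrays and -2.60, -2.44 and -2.61 on the OSK-A549-SN arrays. Probe A_23_P352266 read -3.58, -3.54 and -3.72, then -3.32, -3.40 and -3.26, then -3.63, -3.60 and -3.55. Both probes were higher on all OSK-A549-Colony arrays than on any parental array, but they placed OSK-A549-SN differently: with OSK-A549-Colony by A_33_P3355185, and with parental A549 by A_23_P352266. For OSK-A549-SN over parental A549, A_33_P3355185 differed by 0.39 (standard error 0.16, adjusted p = 0.229 from limma) and A_23_P352266 by 0.02 (standard error 0.12, adjusted p = 0.940). For OSK-A549-Colony over OSK-A549-SN, A_23_P352266 differed by 0.27 (standard error 0.08, adjusted p = 0.187) without overlap, and A_33_P3355185 by -0.03 (adjusted p = 0.876), or 0.03 after quantile normalization. These values depend on how dim signal is treated: with normexp correction the 0.39 became 0.16 and the 0.27 became 0.05, and with quantile normalization they became 0.48 and 0.38.

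MCL1 encodes a rapidly turned over protein that restrains BAK1 and is degraded when bound by PMAIP1. Its level was 1.70, 1.57 and 1.38 on the parental arrays, 2.09, 1.97 and 2.04 on the OSK-A549-Colony arrays and 1.74, 1.75 and 1.75 on the OSK-A549-SN arrays. The order of the means was OSK-A549-Colony, OSK-A549-SN and parental A549, and no groups overlapped. OSK-A549-Colony exceeded OSK-A549-SN by 0.29 (standard error 0.08, 95% interval 0.10 to 0.48, 1.22-fold), a difference larger than the spread of either group but not past limma's adjusted threshold (adjusted p = 0.160). OSK-A549-SN exceeded parental A549 by 0.20 (standard error 0.14, adjusted p = 0.441), and OSK-A549-Colony stood 0.48 (standard error 0.12) above parental A549.

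BCL2L1, whose long form BCL-XL is a main pro-survival protein of epithelial cells, ran the other way. It read 1.49, 1.71 and 1.96 on the parental arrays, 1.43, 1.46 and 1.53 on the OSK-A549-Colony arrays and 1.36, 1.48 and 1.20 on the OSK-A549-SN arrays. The parental mean was the highest, but its lowest array lay within the range of OSK-A549-Colony. The OSK-A549-SN arrays were all below the parental arrays, by -0.37 on average (standard error 0.17, adjusted p = 0.279), and OSK-A549-Colony against OSK-A549-SN gave 0.13 (95% interval -0.13 to 0.38, adjusted p = 0.504). With 1 array left out that last difference ran from 0.05 to 0.19. The array does not tell the long form from the short pro-death form with this probe alone.

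The effectors showed small differences. BAX, which moves from the cytosol to mitochondria on activation, was read by 2 probes of different transcript accessions. Probe A_23_P208706 gave 5.52, 5.60 and 6.05 on the parental arrays, 5.31, 5.41 and 5.42 on the OSK-A549-Colony arrays and 5.53, 5.76 and 5.52 on the OSK-A549-SN arrays, with OSK-A549-Colony below every other array. The OSK-A549-Colony mean was lower than the OSK-A549-SN mean by -0.22 (standard error 0.10, adjusted p = 0.304), and OSK-A549-SN against parental A549 gave -0.12 (95% interval -0.58 to 0.34, adjusted p = 0.725). Probe A_33_P3341144 kept between 0.74 and 1.31 on the 9 arrays, and its groups overlapped in all 3 contrasts.

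BAK1, which resides in the outer membrane, read 1.49, 1.35 and 1.73 on the parental arrays, 1.81, 1.91 and 1.91 on the OSK-A549-Colony arrays and 1.74, 1.84 and 1.47 on the OSK-A549-SN arrays. OSK-A549-Colony lay above all parental arrays, by 0.35 (standard error 0.13), while OSK-A549-SN overlapped both other groups. OSK-A549-Colony against OSK-A549-SN gave 0.19 (standard error 0.12, adjusted p = 0.417) and OSK-A549-SN against parental A549 0.16 (standard error 0.17, adjusted p = 0.611). With 1 array left out the former ran from 0.08 to 0.27 and the latter from 0.07 to 0.27.

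Among the BH3-only members, BIK, a BH3-only protein of the endoplasmic reticulum with prominent roles in epithelial cells, read -1.91, -1.74 and -1.45 on the parental arrays, 1.04, -0.06 and -1.33 on the OSK-A549-Colony arrays and 0.44, -0.01 and -1.18 on the OSK-A549-SN arrays. All 6 transduced arrays were above all parental arrays, although replicate 3 of each transduced group came close to parental replicate 3. The spread within the transduced groups was large, with a range of 5.16-fold in OSK-A549-Colony and 3.08-fold in OSK-A549-SN against 1.37-fold in parental A549. OSK-A549-SN exceeded parental A549 by 1.45 (standard error 0.43, 95% interval 0.41 to 2.49, 2.73-fold), which did not pass limma's adjusted threshold (adjusted p = 0.134). Over the settings tried that difference ran from 0.93 to 1.92, the highest being without OSK-A549-SN replicate 3. The adjusted p from limma ran from 0.0546, also without that replicate, to 0.329. OSK-A549-Colony stood 1.59 (standard error 0.59) above parental A549, or 1.01 without its replicate 1 and 2.19 without its replicate 3, and its difference from OSK-A549-SN, 0.14 (95% interval -1.63 to 1.90, adjusted p = 0.922), turned to -0.44 without OSK-A549-Colony replicate 1 and to -0.33 without OSK-A549-SN replicate 3.

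Some probes of the introduced factors ranked the replicates in the same way. KLF4 A_23_P32233 read -2.34, -2.48 and -2.28 on the parental arrays, 1.50, 0.33 and -0.61 on the OSK-A549-Colony arrays and 1.08, 0.55 and -1.33 on the OSK-A549-SN arrays. POU5F1 A_24_P144601, for the gene of OCT3/4, read -1.75, -2.45 and -2.15, then 1.48, 0.65 and -1.84, then 1.73, 0.80 and -1.97. The other POU5F1 probe, A_23_P59138, read 1.60, 1.28 and 1.27, then 1.42, 0.92 and 0.56, then 1.52, 0.98 and 0.69, so that its means were lower in both transduced groups than in parental A549. In each transduced group BIK, BCL2A1 A_23_P152002, KLF4 and both POU5F1 probes were all highest in replicate 1 and lowest in replicate 3, and for A_23_P59138 the parental arrays were as well. SOX2 A_23_P401055 followed no such ranking, with -4.25, -1.47 and -2.96 in parental A549, -2.88, -3.54 and -2.80 in OSK-A549-Colony and -2.38, -2.50 and -1.66 in OSK-A549-SN. Whether these probes read the introduced or the cells' own copies is not given in the sources used here, and the part of the factors' levels in the BIK and BCL2A1 values was not tested.

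**Figure D2:**
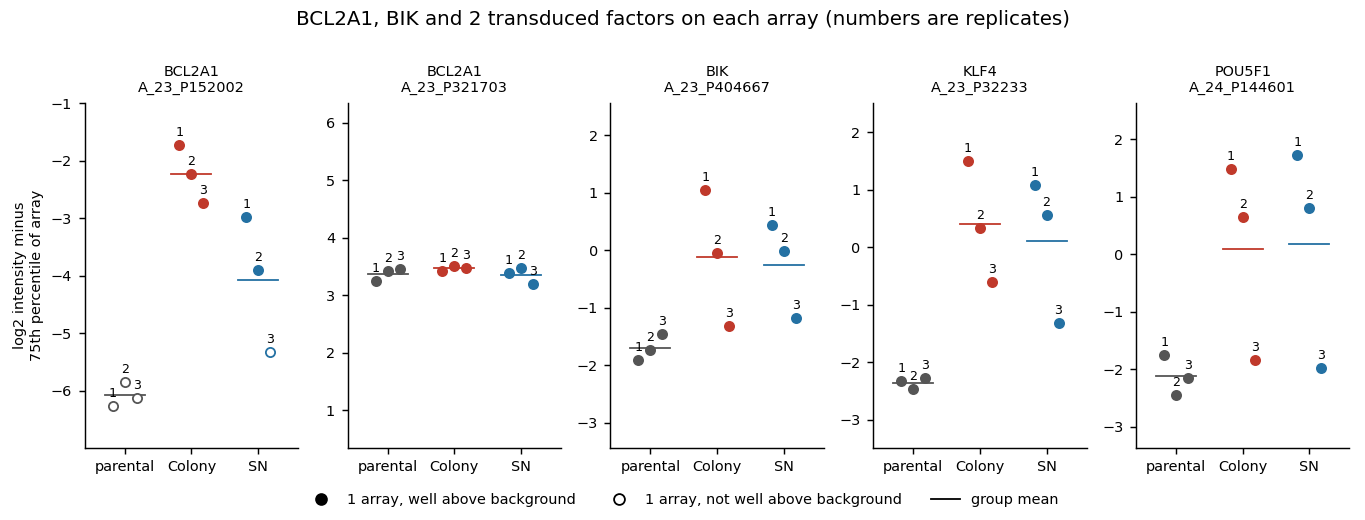
Points are single arrays labelled with their replicate number, on axes of equal span (log2 intensity minus the array's 75th percentile), with lines at the group means and open points for arrays at background. BCL2A1 A_23_P152002, BIK, KLF4 and POU5F1 A_24_P144601 were highest in replicate 1 and lowest in replicate 3 of both transduced groups, whereas BCL2A1 A_23_P321703 kept between 3.20 and 3.50.

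BBC3 (PUMA) encodes a protein that binds every pro-survival member. It read 2.86, 2.84 and 3.28 on the parental arrays, 2.37, 2.25 and 2.10 on the OSK-A549-Colony arrays and 2.19, 2.59 and 2.06 on the OSK-A549-SN arrays. All 6 transduced arrays were below all parental arrays, and the transduced groups overlapped. The OSK-A549-SN mean differed from the parental mean by -0.71 (standard error 0.21, 95% interval -1.22 to -0.20, 1.64-fold lower), which did not pass limma's adjusted threshold (adjusted p = 0.135). Over the settings tried its adjusted p ran from 0.0407, with normexp correction, to 0.324. OSK-A549-Colony stood at -0.75 (standard error 0.16) relative to parental A549, and against OSK-A549-SN it gave -0.04 (95% interval -0.45 to 0.37, adjusted p = 0.900), which became 0.11 without OSK-A549-SN replicate 2.

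PMAIP1 (NOXA), a stress response gene whose protein binds MCL1 and BCL2A1, was the member that set the transduced groups apart most clearly relative to their spread. It read 1.03, 1.38 and 0.65 on the parental arrays, 1.59, 1.58 and 1.76 on the OSK-A549-Colony arrays and 1.10, 1.05 and 1.09 on the OSK-A549-SN arrays. OSK-A549-Colony lay above all other arrays, while OSK-A549-SN lay inside the parental range. OSK-A549-Colony exceeded OSK-A549-SN by 0.57 (standard error 0.09, 95% interval 0.35 to 0.78, 1.48-fold), higher on 3 of 3 arrays, with an adjusted p of 0.105 from limma. That is above the threshold, in a contrast whose smallest adjusted p over all probes was 0.0930. Over the settings tried the difference kept between 0.51 and 0.60 and its adjusted p ran from 0.0218, with normexp correction, to 0.322. OSK-A549-SN against parental A549 gave 0.06 (95% interval -0.45 to 0.57, adjusted p = 0.882), and OSK-A549-Colony stood 0.62 (standard error 0.20) above parental A549.

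BCL2L11 (BIM), which binds all pro-survival proteins and can engage BAX directly, was read by 3 probes that 2 transcript accessions share. Probe A_24_P122921 gave 1.42, 1.35 and 2.29 on the parental arrays, 1.05, 1.18 and 0.95 on the OSK-A549-Colony arrays and 1.30, 1.41 and 1.18 on the OSK-A549-SN arrays. OSK-A549-Colony was lowest, its highest array level with the lowest OSK-A549-SN array, and parental replicate 3 stood far above the other arrays. Between the transduced groups the 3 probes gave OSK-A549-Colony differences of -0.24 (A_24_P122921, adjusted p = 0.293), -0.24 (A_33_P3398526, adjusted p = 0.510) and -0.40 (A_33_P3251932, adjusted p = 0.390). Without OSK-A549-SN replicate 3 the last 2 were -0.09 and -0.14. OSK-A549-SN against parental A549 gave -0.39, -0.25 and 0.19 for the same probes, with adjusted p of 0.450, 0.641 and 0.664. Without parental replicate 3 the first of them was -0.09 and the second 0.03. The last probe differed in sign from the others because OSK-A549-SN replicate 3 read 0.76 where the remaining OSK-A549-SN arrays read -0.06 and 0.05, and without that replicate its difference was -0.06.

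By role, OSK-A549-Colony stood above OSK-A549-SN in the means of the pro-survival MCL1, BCL2L1, BCL2 A_23_P352266 and both BCL2A1 probes. The same held for the effector BAK1 and for PMAIP1 and BIK among BH3-only members. OSK-A549-Colony means were lower for BCL2 A_33_P3355185, both BAX probes, BBC3 and all 3 BCL2L11 probes. The differences of BIK, BBC3 and BCL2 A_33_P3355185 changed sign under some alternatives. With the brightest probe standing for each gene, 6 of 10 members had a higher mean in OSK-A549-Colony than OSK-A549-SN cells, with a median difference of 0.12 beside -0.03 over all 16694 named genes. For OSK-A549-SN against parental A549, 5 of 10 were higher, with a median of 0.02 beside 0.09 over 16774 named genes. Relative to parental A549, 6 of 10 were higher in OSK-A549-Colony, with a median of 0.23 beside 0.03 over 16419 named genes. That last median comes from the contrast that chose the family and is a description. The BCL2A1 value in it is that of the flat, brightest probe, not of the probe that served the choice.

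The genes whose profile over the 9 arrays lay closest to BCL2A1, by root mean square distance between profiles centred on their own mean and among 26584 probes, were found for its brighter probe A_23_P321703: RBM6 (0.04), MED6 (0.04), HENMT1 (0.05), DENND5A (0.05) and INTS4 (0.05). Profiles close to this probe are flat by construction, as the probe is. For A_23_P152002, a target added after its values were seen, ITGB3 (0.58), TNFRSF9 (0.58) and LINC01133 (0.61) were among the closest. For BIK, also added then, the closest were TSPAN1 (0.28), FAM43A (0.30), SPNS2 (0.31), MOB3B (0.31) and TRIM29 (0.32). No nearest profile of either was as close as those of the flat probe.

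The pathway around the family was followed in lists of 60 further genes. In the list of 13 regulators of family transcription and their feedback genes, 3 were called above parental A549 in OSK-A549-Colony and 0 below: the NF-kB subunits NFKB2 (by 1.50, standard error 0.22) and RELB (1.45, standard error 0.21), and TNFAIP3 (1.17, standard error 0.17), an inhibitor that NF-kB induces. Over all 16419 named genes of that contrast 342 were called higher and 298 lower. Between the transduced groups none of the 13 was called by limma, with 7 at an unadjusted p under 0.05 (20.8% of all named genes), and RELB differed by 0.91 (adjusted p = 0.106), TNFAIP3 by 0.96 (adjusted p = 0.128) and the stress factor DDIT3 by 0.94 (adjusted p = 0.124). Between OSK-A549-SN and parental A549 none was called either, with 4 at an unadjusted p under 0.05 (22.5% of all named genes), and NFKBIA and NFKB2 differed by -0.69 and 0.67 (adjusted p of 0.106 and 0.237). Calls against parental A549 rest on few arrays: 0 of all probes were called for OSK-A549-Colony without its replicate 2 and 1 without parental replicate 2, and for OSK-A549-SN 0 without its replicate 1 or 2, and 2 without parental replicate 2.

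In the death receptor list, 1 of 13 tested genes was called lower and 0 higher in each contrast with parental A549, with 7 of 13 at an unadjusted p under 0.05 in OSK-A549-Colony (32.5% of all named genes) and 5 of 13 in OSK-A549-SN (22.5%). Of all 16419 named genes, 342 were called higher and 298 lower in OSK-A549-Colony. In OSK-A549-SN, 127 of 16774 were called higher and 147 lower. Between the transduced groups 0 of its 12 tested genes were called by limma, with 0 at an unadjusted p under 0.05 (20.8% of all named genes) and TNFRSF10B (0.25), TNFRSF10A (0.25) and TNFRSF1A (-0.21) the largest differences. The gene called was TNFSF10 (TRAIL), a death ligand, by -1.72 (standard error 0.26) in OSK-A549-Colony and -1.62 (standard error 0.23, adjusted p = 0.0418 from limma) in OSK-A549-SN, through 1 of its 3 probes. The remaining lists had 0 genes called by limma in any contrast. In OSK-A549-Colony over parental A549, OSK-A549-Colony over OSK-A549-SN and OSK-A549-SN over parental A549, an unadjusted p under 0.05 was found for 3, 4 and 1 of 7 inhibitors of apoptosis, for 2, 1 and 2 of 13 caspase and release genes, and for 4 of 12, 4 of 11 and 3 of 12 further family genes, beside 32.5%, 20.8% and 22.5% of all named genes. The following were among their largest differences of OSK-A549-Colony over parental A549. Among inhibitors of apoptosis these were BIRC3 (1.72), BIRC2 (0.74) and NAIP (-0.45), among caspases and mitochondrial release CYCS (0.67), and among further BCL2 family genes the BH3-only HRK (1.42), BNIP3L (-0.92) and BID (-0.35). In OSK-A549-Colony relative to OSK-A549-SN, the largest of these lists were BIRC3 (1.05, adjusted p = 0.109), BIRC2 (0.45) and BIRC5 (-0.41), DIABLO (-0.25), HTRA2 (-0.23) and APAF1 (-0.22), and BCL2L2 (0.50), HRK (0.35) and BID (-0.35). For OSK-A549-SN over parental A549 they included BIRC3 (0.67, standard error 0.46), NAIP (-0.55) and BIRC7 (-0.30), CYCS (0.65) and APAF1 (0.58). They also included the BH3-only BMF (-2.14, standard error 0.68, adjusted p = 0.155 from limma), HRK (1.07, adjusted p = 0.110) and BNIP3L (-0.84). BIRC3 and BIRC7 overlapped between OSK-A549-SN and parental A549. Parental replicate 3 stood apart in several of the genes named here against parental A549. The parental arrays read 2.10, 2.25 and 0.66 for BIRC3, 1.61, 1.60 and 0.64 for BIRC2, and 5.10, 4.83 and 4.06 for CYCS. Those of BMF read -3.19, -2.30 and -0.43, against -4.12, -3.95 and -4.27 in OSK-A549-SN. Over all 5 lists the median difference was 0.03, 0.02 and 0.10 for OSK-A549-Colony over parental A549, OSK-A549-Colony over OSK-A549-SN and OSK-A549-SN over parental A549, beside 0.03, -0.03 and 0.09 over all named genes.

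**Figure D3:**
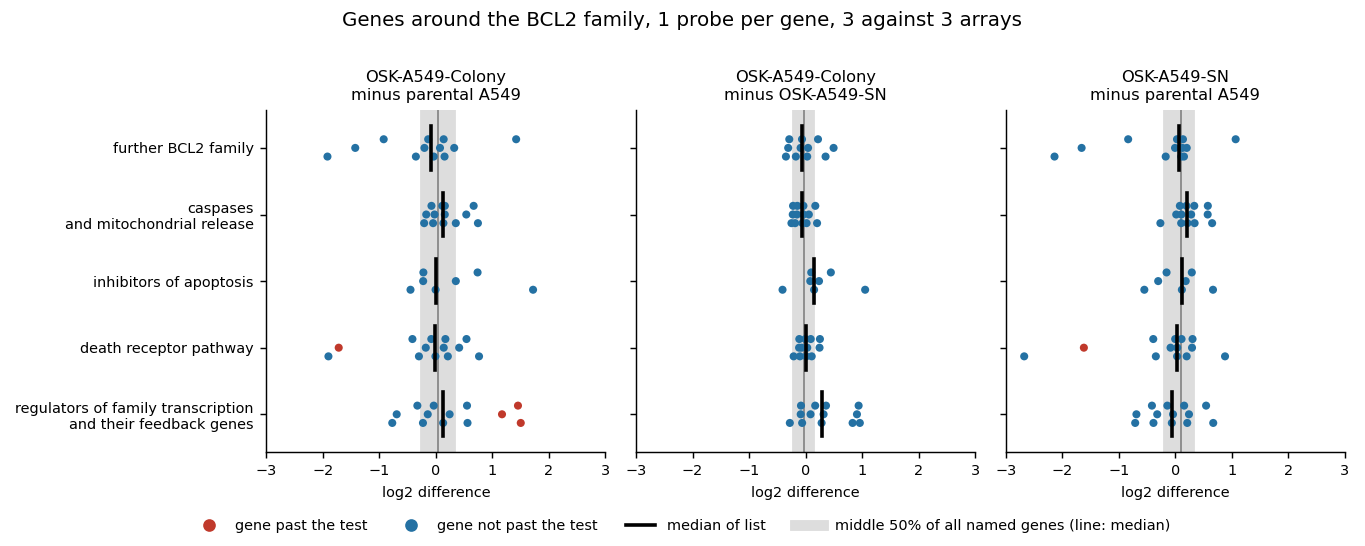
Points are genes of the 5 pathway lists (1 probe per gene), placed by log2 difference in each contrast of 3 against 3 arrays; black bars are list medians, and the grey band holds the middle 50% of all named genes around their median. Genes past the test (red) are TNFSF10 to the left in both contrasts with parental A549, and RELB, NFKB2 and TNFAIP3 to the right in OSK-A549-Colony over parental A549.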

How the data were processed

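Gene expression was measured on 9 Agilent single-colour 60K arrays. The authors deposited the intensity of each spot from Agilent Feature Extraction, background already subtracted and arrays not scaled to each other. A table of log2 values, likewise deposited by the authors, differed from those computed here by 1 shift per array for 100% of probes (within 0.001). Other deposited columns used are the flags for outliers, positive and significant signal, and signal well above background.

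Here intensity was turned into log2 and the 75th percentile of the array subtracted. Control spots (4259) and outlier spots (357 to 484 per array) were left out, none was saturated, and spots of a probe were averaged. A probe was detected where a share of 0.5 or more of its spots was positive, significant and well above background. RefSeq accessions, without versions, named 30275 of 32065 probes through a table on GRCh38.p14. The array annotation uses another build, so no gene coordinates are given apart from the promoters.

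Each contrast was fitted with limma 3.58.1 (lmFit, eBayes) in R 4.3.3 on its 6 arrays, over all probes detected on at least 1, with Benjamini-Hochberg adjustment over all of them; calls needed an adjusted p under 0.05 and a fold over 2. The fit was tested on simulated data. Python 3.11.15 and pandas 2.3.3 made the summaries. Probes of a member are reported singly; for counts per gene the probe with the highest mean stands for it. From each other list, called genes are named, and otherwise up to 3 of the largest differences among genes well above background on all 6 arrays. The lists are further BCL2 family, caspases and mitochondrial release, inhibitors of apoptosis, death receptor pathway, and regulators of family transcription. Members and lists were chosen with earlier results of these data known. Alternatives were normexp correction (offset 50, on median brightness, as the scanner output holds no mean brightness), quantile normalization, no or a stricter filter, slide and replicate number as blocks, all 9 arrays in 1 fit, no fold threshold, the deposited table, and leaving out each array.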

Additional observations from a re-analysis of the deposited data

How the results depend on the processing

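Signal over background limits BCL2A1 A_23_P152002, and 3 arrays per group limit all calls. Of 15 member probes, the number called for OSK-A549-Colony against parental A549 was 1, and 0 with normexp correction, 0 with the replicate block and 2 with no fold threshold; leaving out 1 array gave 0 (without OSK-A549-Colony replicate 2 or parental replicate 2) to 1. Nothing is read from these counts, as this contrast chose the family. In the other contrasts it was 0 under every alternative.

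Over all probes, OSK-A549-Colony against parental A549 gave 1143 calls, and 333 with normexp correction, 583 with no filter on dim probes and 2783 with no fold threshold, and 0 to 1362 with 1 array left out: 0 without OSK-A549-Colony replicate 2, 85 without its replicate 3, 141 without its replicate 1 and 1 without parental replicate 2. Between the transduced groups there were 0 (6181 at an unadjusted p under 0.05), and 32 with normexp correction, 139 where a probe had to be detected on all arrays of a group and 2 with all 9 arrays in 1 fit. OSK-A549-SN against parental A549 gave 498, and 232 with normexp correction, 215 with no filter, 980 with the stricter filter, 187 with slide as a block and 1054 with all 9 arrays, and 0 to 190 with 1 array left out: 0 without OSK-A549-SN replicate 1 or 2, 190 without its replicate 3, and 44, 2 and 158 without parental replicate 1, 2 and 3. The cause was not tested, beyond the smaller number of arrays or probes.

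With the replicate number as a block, the calls over all probes were 0 in each contrast. Samples of the transduced groups that share a number had deviations from their group means that correlated at 0.24, 0.07 and 0.14, each the best match of its sample. They also share a passage number, but the labels do not tie a number to an experiment. The numbers shared with parental A549 showed no such match. Within each number, OSK-A549-Colony was above OSK-A549-SN for PMAIP1, MCL1, BAK1, BCL2 A_23_P352266 and both BCL2A1 probes. It was below within each number for both BAX probes and BCL2L11 A_24_P122921 and A_33_P3251932, and the other member probes had mixed signs. The paired fit is therefore given here alone.

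Some small differences changed sign, as the ranges with 1 array left out show. Between the transduced groups, BCL2 A_33_P3355185 was 0.0283 with quantile normalization, and -0.0588 to 0.0285 (positive without OSK-A549-SN replicate 2); BIK was -0.33 with slide as a block, and -0.44 to 0.74 (negative without OSK-A549-Colony replicate 1, or at -0.33 without OSK-A549-SN replicate 3); BBC3 was -0.15 to 0.11 (0.11 without OSK-A549-SN replicate 2, 0.03 without OSK-A549-Colony replicate 3). For OSK-A549-SN over parental A549, BCL2 A_23_P352266 was -0.0038 with slide as a block, and -0.0346 to 0.0536 (-0.0346 without parental replicate 3, -0.0038 without OSK-A549-SN replicate 3); BCL2L11 A_33_P3251932 was -0.0646 with slide as a block, and -0.0646 (without OSK-A549-SN replicate 3) to 0.348. Without parental replicate 3, BAX A_23_P208706 (-0.222 to 0.0418), PMAIP1 (-0.13 to 0.24) and BCL2L11 A_33_P3398526 (-0.418 to 0.0274) changed sign, to 0.0418, -0.13 and 0.0274. BCL2A1 A_23_P321703, at -0.01 in that contrast, ran from -0.112 to 0.0660 over the alternatives. The cause was not tested. The other member differences kept their direction under all alternatives.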
